A study of Bos taurus with 12 samples.

Results

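The 4 bovine miRNA entries bta-miR-2478, bta-miR-2887, bta-miR-2904 and bta-miR-1248 (below without the prefix) were examined, which are grouped because their sequences are thought to resemble fragments of tRNA, rRNA or snoRNA. They were chosen by name, and they make up 4 of the 388 mature miRNAs and 8 of the 426 rows of the deposited expression table. All 4 were detected in every library. Small RNA had been sequenced from mammary gland biopsies of 12 multiparous Chinese Holstein cows, with 3 cows in each of 4 groups and each cow sampled once. HP cows, with a high percentage of protein in the milk, and LP cows, with a low one, were sampled at peak lactation. The percentage was that of the previous lactation in herd records. HD and LD are the corresponding cows of high and low percentage that were sampled when dry, in the non-lactating period before the next calving. The labels name no treatment. The animals differ between the stages, and the biopsies were not inspected by eye for the tissue they held.

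A miRNA is a short RNA that is cut by Drosha and Dicer from a hairpin and then guides Argonaute to partly matching mRNAs. Cells also hold far larger amounts of structural RNA. Transfer RNA carries amino acids to the ribosome, ribosomal RNA forms the core of the ribosome, and small nucleolar RNA guides the chemical modification of rRNA. When these molecules are cleaved, or decay, they yield pieces in the size range of a small RNA library. A database entry whose mature sequence matches such a piece collects its reads, whether or not a hairpin was ever processed. The mammary gland in lactation makes milk protein at a high rate, and its epithelial cells are rich in ribosomes and tRNA. In the dry gland much of this epithelium has regressed and is being renewed.

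The gene annotation bears on the grouping for only some of the entries. In the RefSeq annotation of the ARS-UCD2.0 assembly, a later assembly than the one used for mapping, a copy of the miR-1248 gene lies within EIF4A2, which codes for an RNA helicase of translation initiation, and the span of that host gene holds 3 snoRNA genes. The other copy lies within MYO5A, an unconventional myosin, and no snoRNA gene is among the 3 genes on either side. A copy of miR-2887 lies within a pseudogene, LOC112444681, and is followed by the rRNA genes LOC112444653 and RN18S1, the latter coding for the RNA of the small ribosomal subunit. It was the 1 miRNA gene of 1032 in the annotation (0.0969%) with an rRNA gene among its 3 nearest genes on either side. A snoRNA gene was as near for 7.95% of miRNA genes, and a tRNA gene for 25.9%. The other copy of miR-2887 and the gene of miR-2478 had no host gene and none of these 3 kinds of RNA gene as near, although an snRNA gene, LOC112448192, is among the nearest to miR-2478. MIR2904 was not matched. No sequence was at hand, so the resemblance to structural RNA was not tested.

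Expression was given as TPM, here the reads of an entry for each 1000000 reads counted on miRNAs, with no correction for length. In 11 libraries all values, and in LD replicate 2 99.77% of them, were whole multiples, within 0.0050 TPM, of a step, the value of 1 read, from which the depth follows. Depth here means the reads counted over all miRNA rows, not the reads sequenced, and the study reports similar totals of clean reads for all libraries. Repeated precursor rows can count a read more than once, which raises the shares of clean reads given below. HP libraries held 6026620 to 12259451 such reads, LP libraries 7927497 to 13373813, HD libraries 11047232 to 23577193 and LD libraries 14326364 to 21520748. HD replicate 1 and LD replicate 1 stood apart from the other 4 non-lactating libraries. They had the lowest depths of that stage, their reads on miRNAs were 47.7% and 60.8% of the clean reads against at least 87.7% in the other 4, and their cows were biopsied the farthest from calving within their groups. In lactation the share of clean reads was 25.9% to 60.1%. Results of the non-lactating period are therefore also given without these libraries.

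The entries differed widely in level. miR-2478 had a mean of 1929 TPM over the 12 libraries and ranked 45 of 388, miR-2887 had 380.4 TPM and ranked 90, miR-2904 had 161.9 TPM and ranked 120, and miR-1248 had 5.95 TPM and ranked 264. Reads ranged from 5338 to 53397 per library for miR-2478, from 860 to 9517 for miR-2887 and from 657 to 3241 for miR-2904, so that counting error was small against the differences among cows. For miR-1248 there were 27 to 203 reads. In HP replicate 1, with 27 reads, the exact Poisson 95% interval of its level was 2.95 to 6.52 TPM, an interval for counting error alone that leaves out PCR duplication.

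These entries were among the more variable of the table. The highest library exceeded the lowest by 19.1 times for miR-2478, 23.2 times for miR-2887, 14.2 times for miR-2904 and 12.5 times for miR-1248. Ranked by the SD of the log2 level over the 12 libraries, they stood at 14, 16, 31 and 98 of 388. Their sum ranged from 0.0294% of the reads on miRNAs in HD replicate 3 to 0.515% in HP replicate 1. Each of miR-2887, miR-2904 and miR-1248 is listed with several precursors (2, 3 and 2 rows), and the rows of an entry held identical values in every library. The data therefore cannot assign its reads to one genomic copy, and a read counted at each copy enters the library total more than once.

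**Figure D1:**
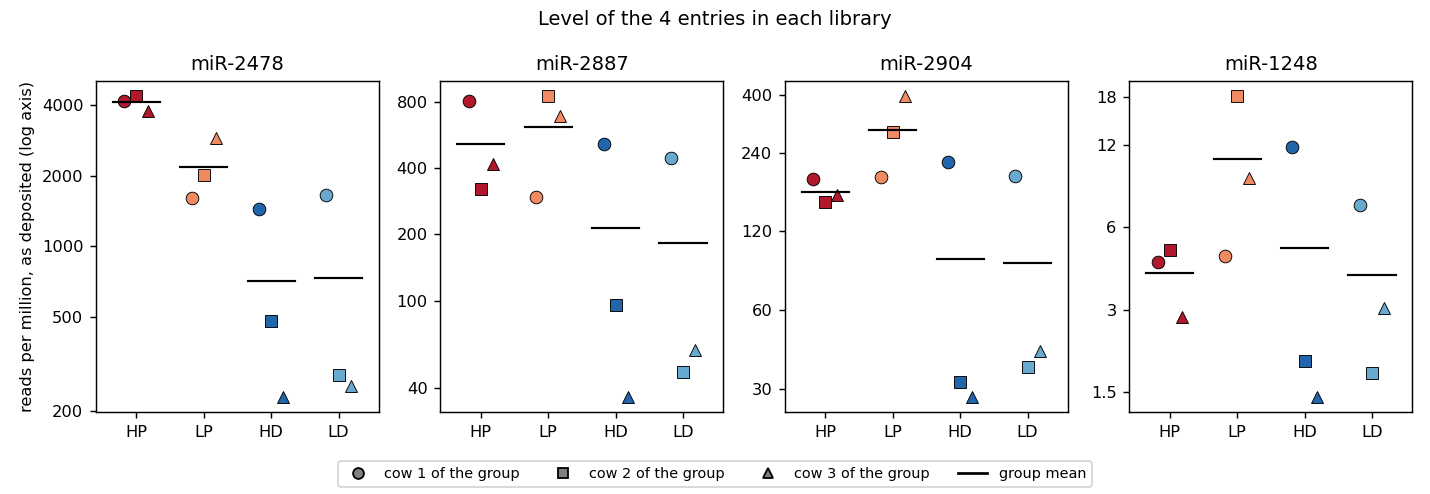
Level of each entry in each of the 12 libraries, in deposited TPM on a log axis, by group; a point is 1 cow and the line is the group mean of 3. In the non-lactating groups the first cow of HD and of LD lies above the other 4 cows for all 4 entries. HP and LP do not overlap for miR-2478 and, by a narrow gap, for miR-2904.

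Whether the phenotype of milk protein percentage in lactation went with a difference in these entries was asked by comparing HP with LP. miR-2478 was lower in LP by 1.89-fold, while miR-1248 was higher in LP by 2.09-fold, and both were DE miRNAs, which the study defines by a p-value below 0.05 before adjustment together with a log2 fold change of more than 0.8 in either direction. This makes 2 of the 4 entries, where 10.1% of all 388 miRNAs were DE in this comparison. None of the 4 passed the adjustment for all miRNAs tested. miR-2478, miR-2887 and miR-2904 had also been picked in the study from these libraries with another test. This was only between HD and LD for miR-2887, and in both phenotype comparisons for miR-2478 and miR-2904. Their choice is therefore not independent of the values. The study lists miR-2478 as raised and miR-2904 as lowered in LP relative to HP, the opposite of the directions found here. It also lists them and miR-2887 as raised in LD relative to HD, where none of them was DE here. The cause of these disagreements was not tested.

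In HP, miR-2478 had 4150.0 TPM in replicate 1, 4355 TPM in replicate 2 and 3779.7 TPM in replicate 3. In LP the values were 1612, 2008 and 2898 TPM. Every HP library lay above every LP library, and the HP libraries were close together. After scaling by size factors the means were 4064 ± 535 TPM in HP and 2186 ± 604 TPM in LP (SD, n = 3). The log2 fold change of LP over HP was -0.92 (SE 0.27, limma adjusted p = 0.203), with a 95% interval of -1.51 to -0.33. Without LP replicate 2 it was -0.79, short of the limit for DE. The 2 miRNAs taken as smooth muscle markers, miR-143 and miR-145, with neither at 0, also separated these groups, with sums of 58589 to 84391 TPM in HP and 112785 to 145006 TPM in LP, and the other 4 marker lists overlapped. Their part in the differences between HP and LP was not tested.

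The size of this difference depended on what the reads were counted against. For each 1000000 clean reads, that is, all reads left after trimming, miR-2478 had 1073, 2398 and 1720.5 reads in HP and 969, 971 and 1028 reads in LP. The groups still did not overlap, but HP was now widely spread and LP was not, at 989 ± 33.8 (SD, n = 3). On this scale, which has no size factors, LP differed from HP by -0.73 in log2 (limma adjusted p = 0.864), and miR-2478 was not DE. TPM without size factors gave -0.95, which was DE.

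miR-1248 had 4.48, 4.98 and 2.83 TPM in HP and 4.71, 18.1 and 9.08 TPM in LP, in the order of the replicates. The groups overlapped through LP replicate 1, and LP replicate 2 was the highest of all 12 libraries. The scaled means were 4.10 ± 1.33 TPM in HP and 10.1 ± 5.18 TPM in LP (SD, n = 3). The log2 fold change of LP over HP was 1.06 (SE 0.41, limma adjusted p = 0.251). It was no longer DE without HP replicate 3 (0.82), LP replicate 2 (0.70) or LP replicate 3 (1.09, past the limit on the fold change but not on the p-value), nor with 5 in place of 1 added before log2 (0.69).

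miR-2904 had 190.5, 155.6 and 165.3 TPM in HP and 193.1, 288.6 and 394.9 TPM in LP. All LP libraries were above all HP libraries, but the nearest pair, HP replicate 1 and LP replicate 1, lay within each other's exact Poisson intervals. Groups that did not overlap were found for 17.3% of all miRNAs, and here for 2 of the 4, miR-2478 and miR-2904. The scaled means were 169 ± 26.4 TPM and 292 ± 87.5 TPM (SD, n = 3). Its log2 fold change of 0.75 (SE 0.29, limma adjusted p = 0.251) was just below the limit for DE, and it exceeded the limit without HP replicate 1 (0.88), LP replicate 1 (0.90) or LP replicate 2 (0.83).

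miR-2887 had 802.4, 322.1 and 415.0 TPM in HP and 295.9, 847.3 and 688.2 TPM in LP. Both groups held high and low libraries and overlapped almost entirely. LP exceeded HP by 0.26 in log2 (SE 0.41, limma adjusted p = 0.858), with a 95% interval of -0.65 to 1.18, which holds the estimates of both miR-2904 and miR-1248.

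**Figure D2:**
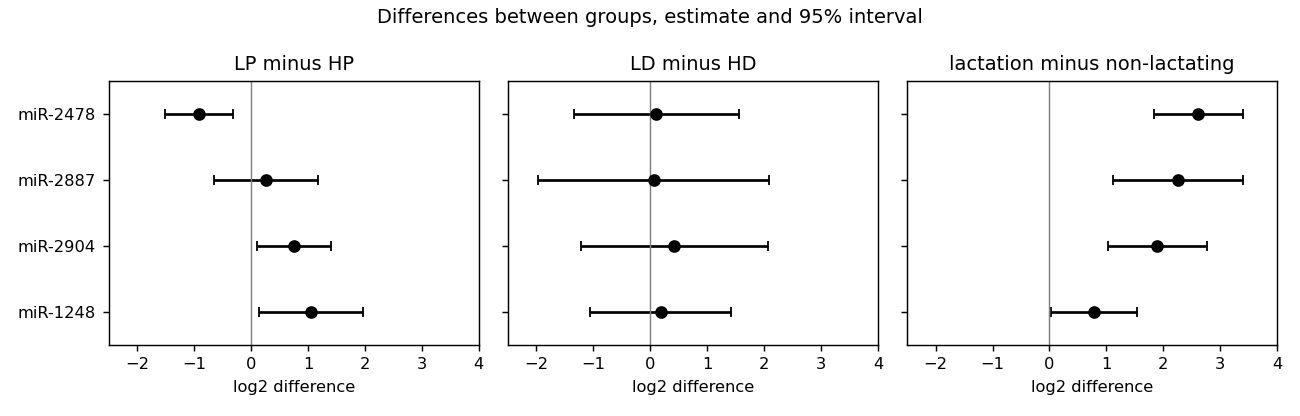
Log2 difference of each entry in 3 comparisons, on the log2(scaled TPM + 1) scale; points are limma estimates and bars are 95% intervals. For LP minus HP, miR-2478 lies at -0.92 and miR-1248 at 1.06; for LD minus HD all 4 intervals span 0; for lactation minus the non-lactating period the estimates are 0.78 to 2.61.

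The same question in the non-lactating period was addressed with HD and LD. None of the 4 entries was DE, where 3.35% of all miRNAs were, and all 4 had a limma adjusted p of 0.994. In HD, miR-2478 had 1437, 481.1 and 228.4 TPM, and in LD 1658, 283.8 and 255.5 TPM. Each group held 1 high and 2 low libraries, and the high library was replicate 1 in both.

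The other entries were spread in the same way. miR-2887 had 512.3, 95.4 and 36.5 TPM in HD and 442.8, 47.6 and 59.5 TPM in LD. miR-2904 had 221.6, 31.9 and 27.9 TPM in HD and 195.1, 36.3 and 41.7 TPM in LD. miR-1248, the least expressed, had 11.8, 1.95 and 1.44 TPM in HD and 7.26, 1.77 and 3.06 TPM in LD. For all 4 entries the first replicate of each group was above the other 4 libraries of this stage, so the groups overlapped.

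The log2 fold changes of LD over HD were 0.11 for miR-2478 (SE 0.62), 0.06 for miR-2887 (SE 0.87), 0.42 for miR-2904 (SE 0.71) and 0.18 for miR-1248 (SE 0.53). These are estimates within the spread among cows. The 95% intervals reached from -1.34 to 1.55 for miR-2478 and from -1.96 to 2.09 for miR-2887, which hold the estimate of -0.92 that miR-2478 had in lactation. Without HD replicate 1 and LD replicate 1, chosen after the values were seen, the estimates were 0.10, 0.24, 0.76 and 0.58 and the standard errors fell to between 0.28 and 0.46. The limma adjusted p was then at least 0.656. The estimate for miR-2478 turned negative without HD replicate 3 (-0.36) or LD replicate 1 (-0.42), and that for miR-2887 without HD replicate 2 (-0.08), HD replicate 3 (-0.64) or LD replicate 1 (-0.60). For miR-1248 it did so without HD replicate 2 (-0.09) or HD replicate 3 (-0.14).

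For miR-2478, miR-2887 and miR-2904 the largest differences were between the stages, whereas the estimate for miR-1248 was larger between HP and LP. Averaged over the phenotypes, miR-2478 was 6.12-fold, miR-2887 4.80-fold and miR-2904 3.72-fold higher in lactation, and each passed the adjustment. miR-1248 was 1.72-fold higher, which did not pass. A Benjamini-Hochberg adjusted p-value under 0.05 was found for 44.3% of all miRNAs in this comparison, and for 22.2% with a higher level in lactation. The median log2 difference was 2.08 over the 4 entries and -0.01 over all miRNAs.

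For miR-2478 the deposited TPM ran from 1612 to 4355 in lactation, with a median of 3339, and from 228.4 to 1658 in the non-lactating period, with a median of 382.4. The stages overlapped only through LD replicate 1, which lay above LP replicate 1. Scaled by size factors over the 12 libraries the means were 3237 ± 1157 TPM and 583 ± 369 TPM (SD, n = 6) and the stages did not overlap. The log2 difference was 2.61 (SE 0.36, limma adjusted p = 0.000157). A two-sided exact permutation test of 6 libraries against 6 gave p = 0.00216, the smallest it can give.

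miR-2887 had a lowest, median and highest value of 295.9, 551.6 and 847.3 TPM in lactation and of 36.5, 77.5 and 512.3 TPM in the non-lactating period. HD replicate 1 and LD replicate 1 fell within the lactation range, and the other 4 lay well below it. Its log2 difference was 2.26 (SE 0.53, limma adjusted p = 0.00427, exact permutation p = 0.00433). miR-2904 ran from 155.6 to 394.9 TPM, with a median of 191.8, against 27.9 to 221.6 TPM, with a median of 39.0, and again the same pair of libraries lay within the lactation range. Its log2 difference was 1.90 (SE 0.40, limma adjusted p = 0.00242, exact permutation p = 0.00216). After scaling its stages did not overlap, but only narrowly, with 152.7 TPM in HP replicate 3 and 150.1 TPM in HD replicate 1. The share of all miRNAs whose stages did not overlap after scaling was not computed.

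For miR-1248 the stages overlapped broadly, with 2.83 to 18.1 TPM in lactation and 1.44 to 11.8 TPM in the non-lactating period. The log2 difference was 0.78 (SE 0.35, limma p = 0.0424, adjusted p = 0.0862, exact permutation p = 0.0996). Leaving out HD replicate 1 alone raised it to 1.07 (limma adjusted p = 0.0101).

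With HD replicate 1 and LD replicate 1 both left out, the log2 differences between the stages were 3.15 for miR-2478, 3.03 for miR-2887, 2.503 for miR-2904 and 1.15 for miR-1248, and the largest of the 4 limma adjusted p-values was 0.00761. Over all 12 libraries the TPM without size factors gave 2.504 for miR-2478, 2.15 for miR-2887, 1.79 for miR-2904 and 0.67 for miR-1248. Counted against clean reads, also without size factors, the differences were 1.66 (limma adjusted p = 0.00226), 1.31 (0.0283), 0.94 (0.0475) and 0.04 (0.914) in the same order. Thus the stage difference of the first 3 entries passed with both denominators, and the estimate for miR-1248 was close to 0 with clean reads. Passing was more frequent among all miRNAs with clean reads, where 238 passed in either direction. The number was 172 with scaled TPM and 138 with TPM without size factors. A pass with clean reads therefore does not set these 3 entries apart from the other miRNAs.

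The summed levels of miRNAs taken as cell type markers moved with the stage as well. The 7 miRNAs taken as markers of mammary epithelium, among them miR-148a and the miR-200 family, were all listed and none was at 0 in any library. Their sum was 143405 to 236342 TPM in lactation and 30965 to 79643 TPM in the non-lactating period, without overlap, and within the latter it was highest in LD replicate 1 and second highest in HD replicate 1. The 4 leukocyte markers, also with none at 0, summed to 4991 to 8776 TPM in lactation and 7941 to 19891 TPM in the non-lactating period. These ranges overlapped, as did those of the other lists. In the same order they were 781 to 2041 and 413 to 6127 TPM for red blood cells. For skeletal muscle they were 102 to 392 and 89.1 to 726 TPM, and for smooth muscle 58589 to 145006 and 79229 to 224185 TPM. Fewer cells of a type and less RNA per cell cannot be told apart in such bulk samples, and the part of either in the stage difference of the 4 entries was not tested.

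Whether the phenotype difference depended on the stage was tested over all 12 libraries. The difference of LP minus HP less that of LD minus HD was -1.01 for miR-2478 (SE 0.72, limma adjusted p = 0.960), 0.21 for miR-2887 (SE 1.05, 0.993), 0.35 for miR-2904 (SE 0.80, 0.993) and 0.89 for miR-1248 (SE 0.69, 0.960). None of them passed the test. Over all miRNAs the test gave 0 past the adjustment and 20 with an unadjusted p-value under 0.05 (5.15%), none of them among the 4 entries. It does not show that the phenotype difference was alike in both stages. Without HD replicate 1 the value was -1.51 for miR-2478, which then had an unadjusted p-value under 0.05 (limma adjusted p = 0.939), -0.61 for miR-2887, -0.40 for miR-2904 and 0.33 for miR-1248. Without HD replicate 3 or LD replicate 1 that of miR-2478 was -0.58 or -0.47. Without LP replicate 2 that of miR-1248 was 0.55.

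Since the total of a library is the denominator of TPM, the level of each entry was also set against the depth within each stage. In lactation none of the 4 relations passed. Pearson's r of log2 TPM with log2 depth was -0.50 for miR-2478 (exact permutation p = 0.310), -0.71 for miR-2887 (exact p = 0.129), -0.27 for miR-2904 (exact p = 0.618) and 0.06 for miR-1248 (exact p = 0.911). Spearman's rho was -0.37, -0.66, -0.20 and 0.20 (exact permutation p = 0.497, 0.175, 0.714 and 0.714). Adjusted over the 8 relations examined, 4 entries in 2 stages, the p-values of r were at least 0.207 and those of rho at least 0.280. Without the libraries farthest from the median depth, HP replicate 1 and LP replicate 3, r was -0.48, -0.52, -0.06 and 0.05. Counted against clean reads, r was 0.28 for miR-2478, -0.06 for miR-2887, 0.52 for miR-2904 and 0.48 for miR-1248. Without LP replicate 2, r of miR-2887 was -0.98 (exact permutation p = 0.00833, n = 5).

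In the non-lactating period the depths fell into 2 sets, HD replicate 1 and LD replicate 1 with 11047232 and 14326364 reads and the other 4 libraries with at least 20895168. A relation pooled over both sets is thus given only as a description, with no p. The shallower pair had the higher level of every entry, and r over the 6 libraries was -0.90 for miR-2478, -0.94 for miR-2887, -0.97 for miR-2904 and -0.98 for miR-1248. Within the 4 deeper libraries alone it was -0.17, -0.45, -0.97 and -0.86 in the same order, from few points. An r under -0.8 over the 6 libraries was found for 17.8% of 381 miRNAs in this stage, with a median r of -0.57, and for 2.66% of 376 miRNAs in lactation, with a median of -0.09. Depth and the time before calving cannot be told apart in these 2 cows. The stages also differed in depth, with 6026620 to 13373813 reads in lactation and 11047232 to 23577193 in the non-lactating period. The part of depth in the stage differences of the entries was not tested.

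**Figure D3:**
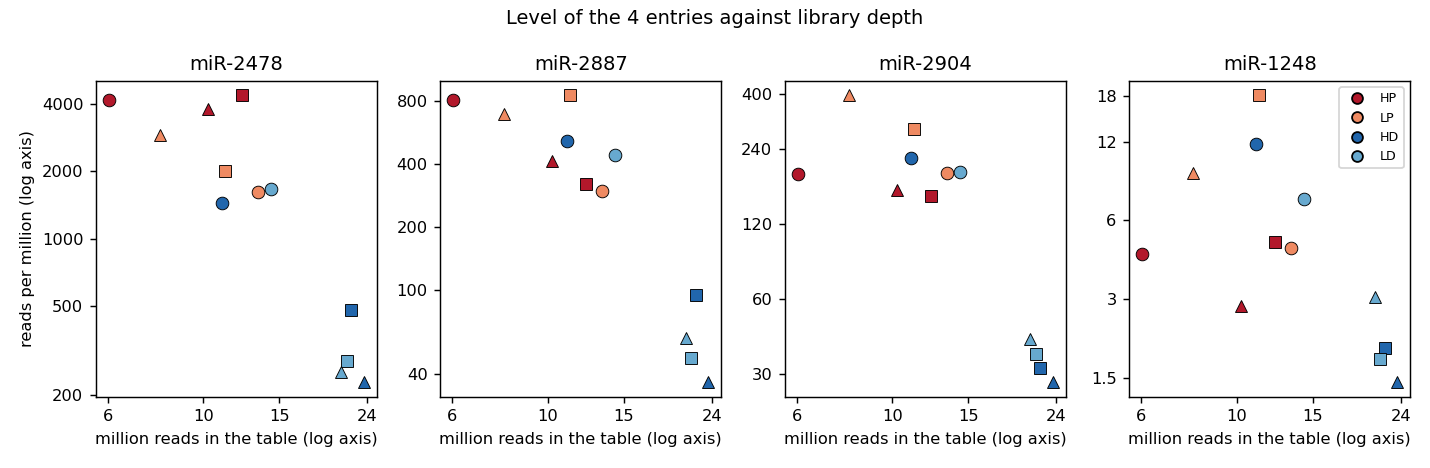
Level of each entry in TPM against the reads counted in the library, both on log axes, with 1 point per library, coloured by group and with the marker shape of its replicate number (circle 1, square 2, triangle 3). The 4 deepest libraries, of HD and LD, have the lowest levels of miR-2478, miR-2887 and miR-2904, and the first replicates of HD and LD lie above the other 4 non-lactating libraries for every entry.

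The entries followed each other only in part. In the 6 lactation libraries miR-2887, miR-2904 and miR-1248 had positive correlations of their scaled log2 levels, with r of 0.58 for miR-2887 and miR-2904, 0.56 for miR-2887 and miR-1248 and 0.70 for miR-2904 and miR-1248. miR-2478 was negatively related to each of them, with r of -0.10, -0.42 and -0.64. None of these 6 relations passed an exact permutation test over the 6 libraries (the smallest p of r was 0.103, with an adjusted p of 0.433, and the smallest of rho was 0.0333, with an adjusted p of 0.200). In the non-lactating period all 6 pairs were positively correlated, with r of 0.79 to 0.98, again with the first replicates of HD and LD apart from the others. The values of r in lactation also hold the difference between HP and LP, whose estimate was negative for miR-2478 and positive for the others. With group means subtracted over the 12 libraries, r of miR-2478 was 0.88 with miR-2887, 0.90 with miR-2904 and 0.63 with miR-1248. HD replicate 1 and LD replicate 1 are among those libraries. Without that subtraction, r over all 12 libraries also holds the difference between the stages, and it is given below only as a measure of likeness.

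The ratio of 2 entries within a library does not depend on the library total. It was looked at after the levels had been seen, and is given with no test. There were 21.8, 28.0 and 22.9 reads of miR-2478 for each read of miR-2904 in HP, and 8.35, 6.96 and 7.34 in LP. In HD the ratio was 6.49, 15.1 and 8.19, and in LD 8.50, 7.81 and 6.12. On this ratio the 3 HP libraries lay above the other 9, and the LP libraries lay within the range of HD and LD, although the levels of both entries were several-fold higher in LP than in most non-lactating libraries. In TPM every HP library had more miR-2478 and less miR-2904 than every LP library. The ratio of these entries therefore had to separate HP from LP, and it adds no support to those differences. Against miR-2887 the ratio of miR-2478 did not separate HP. It was 5.17, 13.5 and 9.11 in HP, 5.45, 2.37 and 4.21 in LP, 2.805, 5.04 and 6.26 in HD and 3.74, 5.96 and 4.29 in LD, so that HP replicate 1 lay below LP replicate 1. The ratio of miR-2887 to miR-2904 also had no such order. It was 1.31 to 4.21 over the 12 libraries, with 2.93 ± 1.13 in HP, 2.07 ± 0.757 in LP, 2.21 ± 0.849 among the HD libraries and 1.67 ± 0.523 in LD (SD, n = 3), and the groups overlapped.

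**Figure D4:**
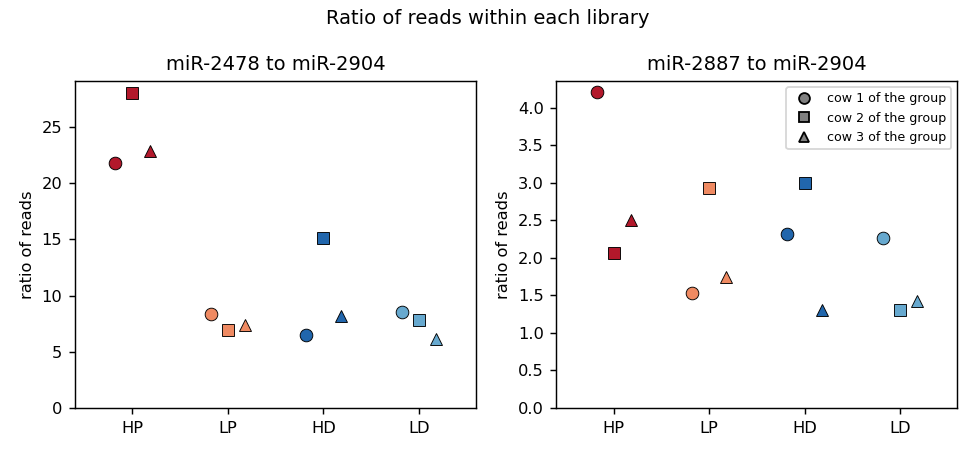
Reads of miR-2478 (left) and of miR-2887 (right) for each read of miR-2904, with 1 point per library, by group, on linear axes from 0. The HP libraries lie at 21.8 to 28.0 on the left and all others at 15.1 or below. The separation of HP from LP on the left follows from the levels of the entries already shown. On the right the groups overlap between 1.31 and 4.21.

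Other miRNAs had patterns close to those of these entries. Among the miRNAs with a mean of at least 10 TPM, the pattern over the 12 libraries most like that of miR-2478 was that of miR-11985 (r = 0.96), followed by let-7a-3p and miR-345-5p (both 0.94). For miR-2887 it was miR-11976 (r = 0.97), followed by miR-2904 (0.94) and miR-188 (0.92). miR-2904 was most like miR-2887 and miR-11976 (both 0.94) and then miR-2340 (0.91). miR-1248 had no pattern as close, the nearest being miR-2904 (0.82), miR-2887 (0.78) and miR-374b (0.76). The libraries share the 2 stages and the depths described above, and these values of r are descriptions of likeness only.

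A list of 7 other entries that overlap or resemble structural RNA was compared. Of these, miR-1260b, miR-1291, miR-664b and miR-1839 were listed in the table, whereas miR-1246, miR-664a and miR-3651 were not. None of the 4 was DE in HP against LP or in HD against LD. All 4 were higher in lactation than in the non-lactating period past the adjustment, as were 22.2% of all miRNAs, with log2 differences of 1.42 for miR-1260b (limma adjusted p = 0.0104), 0.80 for miR-1291 (0.00586), 0.73 for miR-664b (0.0325) and 0.56 for miR-1839 (0.0377). Each of these was smaller than the stage difference of miR-2904, and miR-1291, at 0.59 to 4.90 TPM, was expressed near the level of miR-1248.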

How the data were processed

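Small RNA reads of 12 mammary biopsies had been trimmed by the authors with Cutadapt 2.8 and Trimmomatic 0.36, kept at 18 to 30 nt, mapped with Bowtie 1.1.1 and at most 1 mismatch to ARS-UCD1.2, and counted on miRBase 22.0 with miRDeep2. The authors deposited RPM values, which they call TPM. A structural RNA read that maps to a miRNA precursor is counted as that miRNA.

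Groups and replicate numbers follow the labels and matching column names, and 0 columns were left unused. Of several precursor rows the one with the highest mean was kept. Size factors (median of ratios) were divided out, 1 was added and log2 taken, which understates changes of low entries. Comparisons were fitted over all 388 miRNAs with limma 3.58.1 in R 4.3.3 with a mean-variance trend, over the 6 libraries of a stage or all 12, with Benjamini-Hochberg adjustment. The DE limits follow the study, whose own test was DESeq2 on counts not used here. Permutation tests used Python 3.11.15 with scipy 1.17.1. With 3 libraries against 3 an exact test cannot give a p under 0.1.

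Depth came from the value of 1 read: all values of 11 libraries, and 99.77% in LD replicate 2, were whole multiples of it within 0.0050 TPM. A level of 3 reads was 0.127 to 0.498 TPM. Clean read totals were taken from the study's library statistics. On simulated data with a log2 change of 1 in 200 of 388 miRNAs, the HP against LP comparison recovered 52.5%, HD against LD 49.5% and the stage comparison 88.5%. The simulation gave every miRNA the same dispersion, not its own, so these shares do not hold for entries that vary more among cows. The alternatives were other scalings, pseudocounts, filters and precursor rows, limma without the trend, a block for the replicate number, 1 fit of all 12 libraries, clean reads as denominator, and leaving out each library. The members and lists were chosen with earlier results of these data known. The text names the 4 members, a list of 7 other structural-type entries, 5 lists of cell type markers and, for each member, the 3 miRNAs most like it. Summed TPM of the remaining marker lists was 413 to 6127 for red blood cells, 89.1 to 726 for skeletal muscle (2 of 3 listed) and 58589 to 224185 for smooth muscle, with none at 0. Replicates are different cows, and the numbers were not stated to pair them.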

Additional observations from a re-analysis of the deposited data

How the results depend on the processing

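Of the member differences under the alternatives that kept all libraries or left out the shallow pair HD replicate 1 and LD replicate 1 (the latter chosen after the data had been seen), 160 of 168 kept their direction and their side of the threshold. In the main fit no entry passed in HD against LD or for the dependence on stage, and not passing again counts among the 160. That count is therefore not a measure of how firm the differences are. Stage calls of miR-2478, miR-2887 and miR-2904 held under every alternative run, with limma adjusted p-values of up to 0.0475. The largest of these values came with clean reads and no size factors, where 238 miRNAs passed for the stages. miR-1248 was tested under every alternative except a minimum mean of 10 TPM, which its level does not reach. With 5 added before log2, miR-1248 in HP against LP was 0.69 and the number of DE miRNAs changed from 39 to 22, and in HD against LD from 13 to 7. Counted against clean reads and without size factors, 2 choices changed together, miR-2478 in HP against LP was -0.73, the estimates of HD against LD turned to -0.065 for miR-2478 and -0.10 for miR-2887, and 22 and 7 miRNAs were DE. With TPM not scaled by size factors, but the reads on miRNAs kept as denominator, the HD against LD estimates were -0.13 and -0.17, with 3 DE miRNAs there and 40 in HP against LP. With all 12 libraries in 1 fit, miR-2478 in HP against LP was -0.87 and no longer DE. Without the shallow pair, 22 miRNAs were DE in HD against LD, and the stage difference of miR-1248 passed at 1.15. A minimum mean of 10 TPM gave 114 in place of 172 miRNAs for the stages and 8 in place of 20 for the dependence on stage. The cause of these changes was not tested.

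Leaving out 1 library at a time gave 24 (without LP replicate 1) to 53 (without HP replicate 1) DE miRNAs in HP against LP, 6 (without HD replicate 2) to 36 (without LD replicate 1) in HD against LD, where there were 8 without LD replicate 2, and 13 (without HP replicate 2) to 32 (without HP replicate 1) with an unadjusted p-value under 0.05 for the dependence on stage. In HP against LP the estimates ranged from -1.14 to -0.79 for miR-2478, 0.0031 to 0.68 for miR-2887, 0.52 to 0.90 for miR-2904 and 0.70 to 1.39 for miR-1248. In HD against LD they ranged from -0.42 to 0.64 for miR-2478, -0.64 to 0.92 for miR-2887, 0.0026 to 1.198 for miR-2904 and -0.14 to 0.77 for miR-1248. The stage difference of miR-1248 was 0.62 to 1.07. For the dependence on stage the ranges were -1.51 to -0.47 for miR-2478, -0.61 to 0.89 for miR-2887, -0.40 to 0.78 for miR-2904 and 0.33 to 1.22 for miR-1248.

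Relations with depth in lactation had r of 0.28 for miR-2478, -0.06 for miR-2887, 0.52 for miR-2904 and 0.48 for miR-1248 against clean reads. With group means subtracted over the 12 libraries, r was -0.72 for miR-2478, -0.84 for miR-2887, -0.82 for miR-2904 and -0.69 for miR-1248, and the shallow pair is among those libraries. In the non-lactating period r of miR-2478 was -0.93 on the linear scale and -0.80 against clean reads. Without the shallow pair r was -0.17 for miR-2478, -0.45 for miR-2887, -0.97 for miR-2904 and -0.86 for miR-1248. Left out singly, libraries gave r of -0.81 to -0.22 (miR-2478), -0.98 to -0.59 (miR-2887), -0.71 to 0.019 (miR-2904) and -0.22 to 0.18 (miR-1248) in lactation. When dry, the ranges were -0.94 to -0.88, -0.97 to -0.93, -0.999 to -0.97 and -0.99 to -0.96. Over the 12 libraries, r of miR-2478 with miR-1248 was 0.52, 0.63 with group means subtracted and 0.40 to 0.65 with 1 library left out.

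Libraries share replicate numbers, which were not stated to pair the cows. Deviations of same-numbered libraries correlated at -0.20, -0.26 and 0.01 in HP and LP and 0.55, -0.11 and 0.50 in HD and LD. A library correlated best with its own number in 0 of 6 cases in HP and LP and 4 of 6 in HD and LD. These values cannot decide whether the numbers of HD and LD carry a shared factor. A block for the replicate number gave 34 DE miRNAs in HP against LP and 17 in HD against LD, 170 miRNAs passed for the stages, and no call of the 4 entries changed. The planned count tests on recovered reads were not run, because in 11 of the 12 libraries fewer than 100 values were low enough for a check of the steps.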
